A study of Homo sapiens with 11 samples.

Results

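The AP-1 loci were the genes FOS, FOSB, FOSL1, FOSL2, JUN, JUNB, JUND and ATF3, 8 of the 20037 protein-coding genes of RefSeq on the main chromosomes. They were taken by symbol and not by a cut on measured values, but earlier results of these data were known. A locus was the RefSeq gene body in GRCh38.p14 with 50 kb either side, which gave 905931 bases in all, from 101830 bases at JUNB to 155371 bases at ATF3. The data were ChIP-seq peak lists from 92-1 cells, an established uveal melanoma line, treated for 4 h with solvent (DMSO) or FHT-1015, which inhibits the ATPase activity of BAF chromatin remodelling complexes. The antibodies were against H3K27ac, the histone acetylation found at active promoters and enhancers, against SMARCA4, a catalytic subunit of BAF, and against the transcription factors MITF, TFAP2A and SOX10 of the melanocyte lineage. Each of the 5 antibodies had 1 library in each of the 2 conditions, so no difference below has a replicate check and none was tested. Every library came from the same line, and the dose of FHT-1015 and the peak caller's settings are not given in the sources used here.

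AP-1 is a dimeric transcription factor built from basic leucine zipper proteins of the FOS, JUN and ATF families, which binds short palindromic sites in promoters and enhancers. Several of its genes are immediate early genes, switched on within minutes by growth factors, stress and MAP kinase signalling, a pathway that is active in uveal melanoma. AP-1 is also known to work with BAF at enhancers, where it can help to recruit the remodeller to nucleosomes.

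The loci differed in what else they held. The windows of FOS, FOSL2 and JUN touched no other protein-coding gene. The windows of the other 5 genes touched 27 others: 10 at FOSL1, 8 at JUNB, 4 each at FOSB and JUND, and 1 at ATF3. A peak in those windows can therefore belong to a neighbour, such as ERCC1 or RTN2 beside FOSB, or HOOK2 and RTBDN beside JUNB.

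RefSeq promoter entries (GRCh38.p14) were found for 7 of the 8 genes, with a pair of entries for ATF3 and none for FOSL1. The 250 bases before the start are shown for 5 genes: FOS and FOSL2, whose starts kept their peaks, JUN and JUND, where the peaks listed over the start differed between the conditions, and ATF3, whose listed starts had no peak. Each runs 5′ to 3′ on the gene's own strand. FOS is at chr14:75278578-75278827 and FOSL2 at chr2:28392608-28392857, both on the plus strand. JUN is at chr1:58784048-58784297 and JUND at chr19:18281623-18281872, both on the minus strand. The first ATF3 start is at chr1:212565157-212565406 on the plus strand. Capitals mark matches to the motifs named next.
FOS promoter: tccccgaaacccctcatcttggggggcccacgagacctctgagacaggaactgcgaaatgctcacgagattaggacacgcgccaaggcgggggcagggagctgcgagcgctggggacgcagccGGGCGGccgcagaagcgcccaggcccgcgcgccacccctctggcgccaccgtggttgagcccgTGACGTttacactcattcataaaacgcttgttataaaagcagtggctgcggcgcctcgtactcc
FOSL2 promoter: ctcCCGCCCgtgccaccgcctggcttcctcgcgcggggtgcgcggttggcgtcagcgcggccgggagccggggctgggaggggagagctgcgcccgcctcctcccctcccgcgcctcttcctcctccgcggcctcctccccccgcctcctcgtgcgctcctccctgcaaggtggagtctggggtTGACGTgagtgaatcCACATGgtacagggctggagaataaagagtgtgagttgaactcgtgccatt
JUN promoter: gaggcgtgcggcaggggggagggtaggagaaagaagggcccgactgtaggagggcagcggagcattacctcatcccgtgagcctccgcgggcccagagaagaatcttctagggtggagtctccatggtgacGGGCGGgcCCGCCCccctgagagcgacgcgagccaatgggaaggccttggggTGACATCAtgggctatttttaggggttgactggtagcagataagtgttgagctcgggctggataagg
JUND promoter: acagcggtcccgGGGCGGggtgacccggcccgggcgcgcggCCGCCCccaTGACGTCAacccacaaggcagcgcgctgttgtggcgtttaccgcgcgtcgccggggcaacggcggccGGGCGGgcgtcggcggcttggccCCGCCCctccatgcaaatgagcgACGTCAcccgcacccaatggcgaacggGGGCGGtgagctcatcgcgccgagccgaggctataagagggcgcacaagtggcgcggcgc
ATF3 promoter: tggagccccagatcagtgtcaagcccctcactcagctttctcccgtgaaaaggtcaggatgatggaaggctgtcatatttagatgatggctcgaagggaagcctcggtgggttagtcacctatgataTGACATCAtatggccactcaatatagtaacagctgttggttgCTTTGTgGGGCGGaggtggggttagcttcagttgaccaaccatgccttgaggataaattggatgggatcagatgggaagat

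The motifs were searched on both strands of these 250 bases in 8 member entries and in 22199 entries of all genes. They were TGANTCA, the core AP-1 site, TGACGTCA, the site of CREB and ATF proteins, the CArG box of serum response factor, CACGTG and CACATG, which MITF can bind, GCCNNNGGC for AP-2 proteins, ACAAAG and ACAATG for SOX proteins, and GGGCGG, the GC box. No member entry held TGANTCA, which 5.36% of all entries held, or the CArG box, held by 1.18%. TGACGTCA was found in JUND alone, at position -200, counted backwards from the start, and 2.01% of all entries held it. A GC box stood in 6 of the 8 entries against 53.7% of all, with 5 matches in JUND. CACATG was found in FOSL2 at position -51, GCCNNNGGC in JUNB at position -178, and ACAAAG, as its complement CTTTGT, at the first ATF3 start at position -81. The shares over all entries were 7.59%, 23.4% and 11.6%. CACGTG and ACAATG, held by 7.37% and 6.92% of all entries, had no match in the members.

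After these letters had been seen, a pair of shorter or variant sites was added. TGACGT, which also lies inside TGACGTCA, was found in 4 of the 8 entries and in 8.00% of all. It lay at position -64 in FOS, -60 in FOSB and -66 in FOSL2. JUND held it at 2 sites, the palindrome TGACGTCA itself and, on the other strand, position -87. TGACATCA was found in JUN at position -67 and at the first ATF3 start at position -123, and in 1.95% of all entries. Because they were chosen from the members' own letters, these counts are descriptions only, and a match does not show that a factor bound.

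Peak lists carry no total read count, so library depth was read from the peaks. The authors' fold enrichment and −log10 p of a peak together gave a whole number of fragments at the summit for all peaks tried in 9 lists (within 0.05 of a whole number). In the FHT-1015 SOX10 list 12.6% did so directly and 99.9% once the caller's scaling, estimated at 0.890, was taken into account. From the lowest backgrounds, the FHT-1015 library was 1.05 times as deep as the DMSO library for H3K27ac, 0.918 times for SMARCA4, 0.854 times for MITF, 0.960 times for TFAP2A and 1.15 times for SOX10, where the value rests on the estimated scaling. As a check of the cell type, an H3K27ac peak in DMSO covered the start of all 5 melanocytic marker genes with an entry (MITF, MLANA, TYR, TYRP1, DCT) and of none of the 3 markers of other cells with one (KRT5, PTPRC, ALB).

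**Figure D1:**
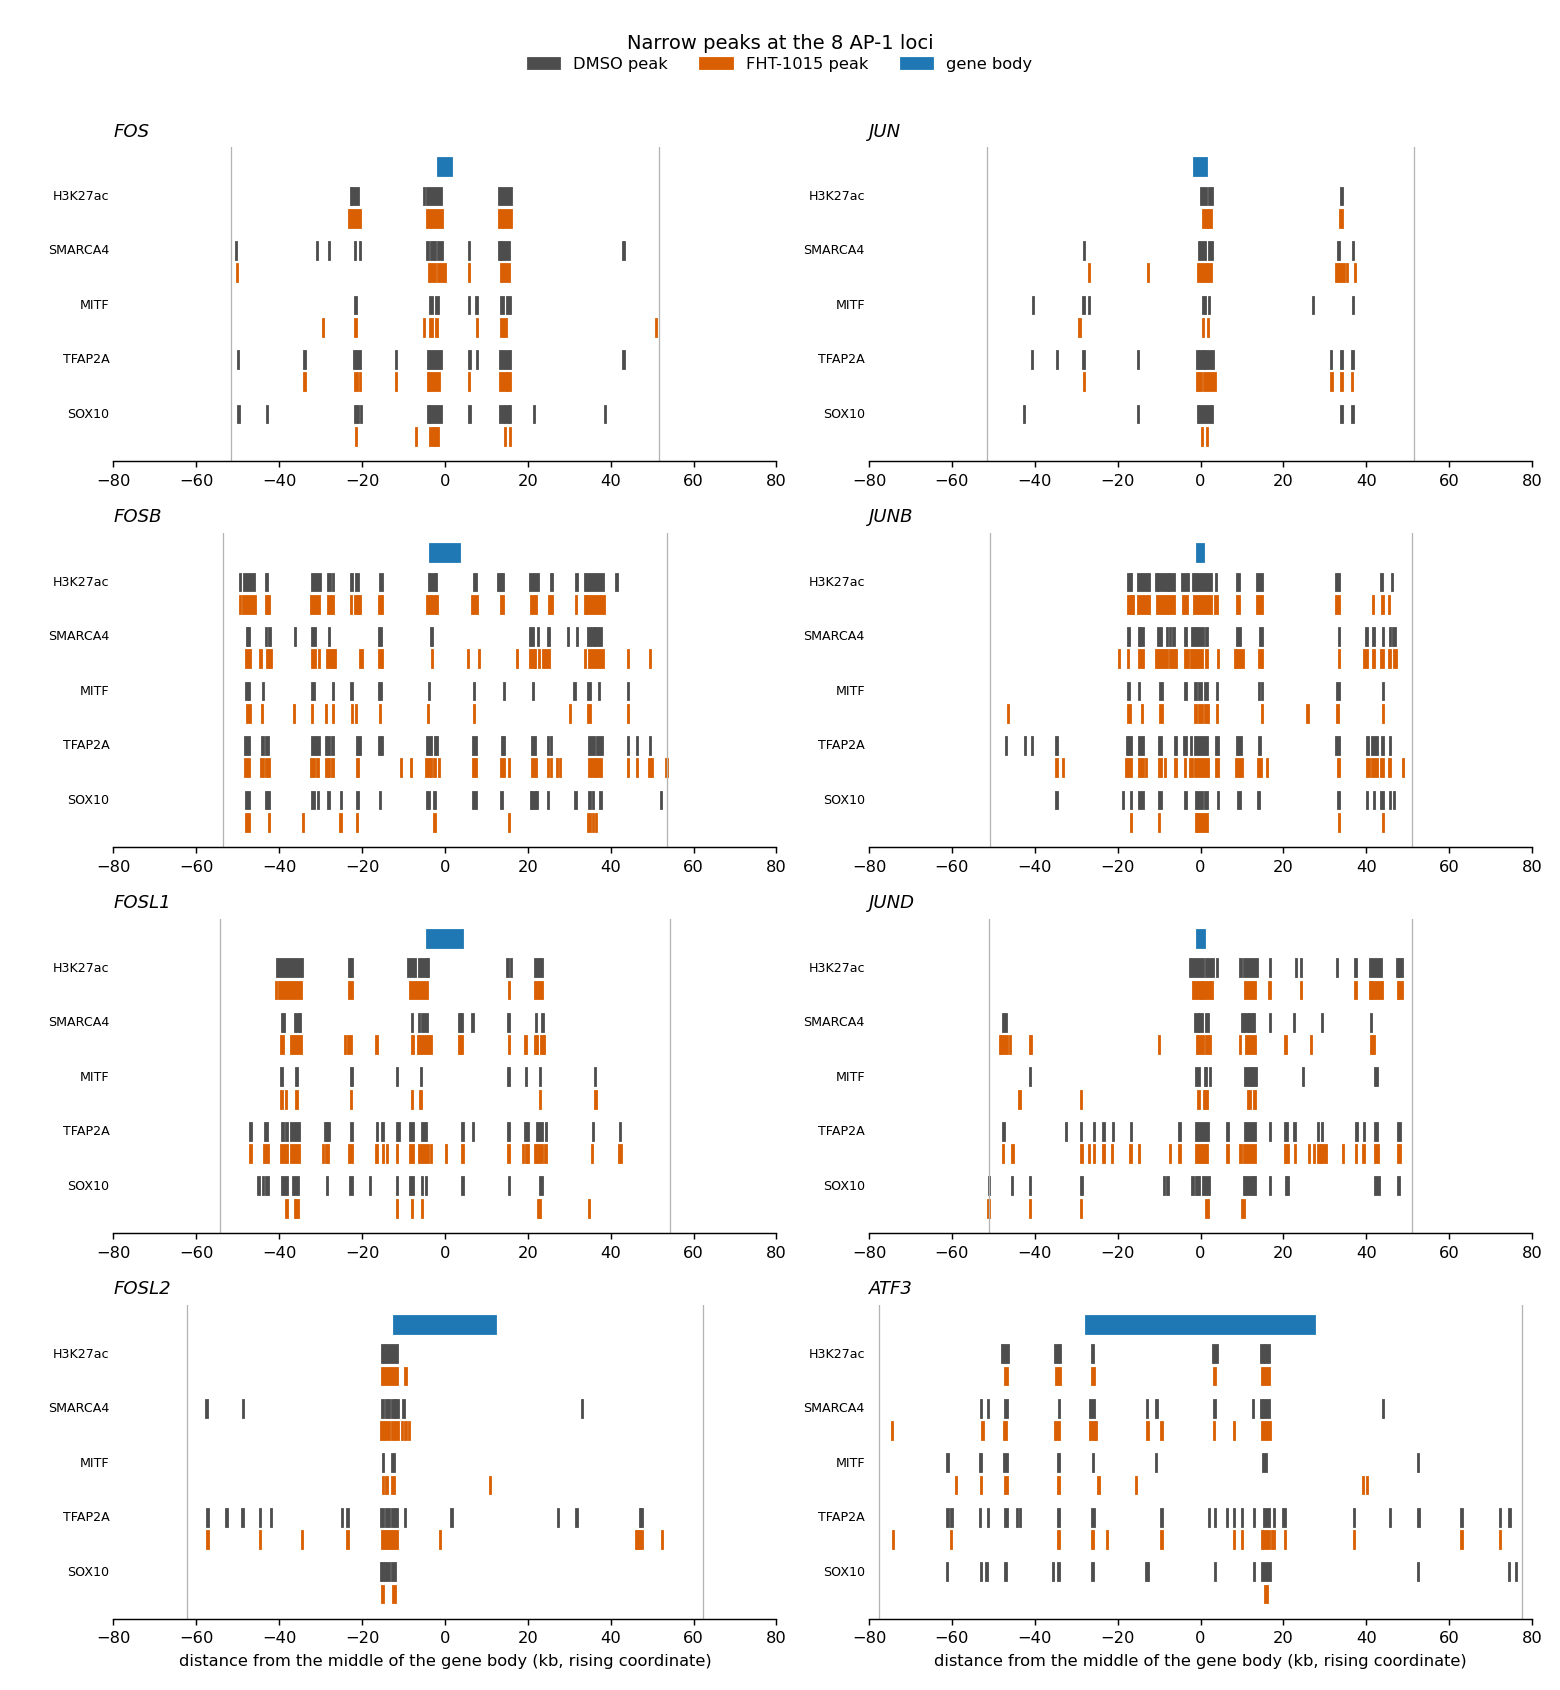
Narrow peaks at each of the 8 AP-1 loci, by distance in kb from the middle of the gene body (rising coordinate), with DMSO peaks in grey, FHT-1015 peaks in orange and the gene body in blue. Thin vertical lines mark the window's ends, the shortest peaks are widened to stay visible, and the SOX10 rows thin out in FHT-1015 at every locus.

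SOX10 peaks were fewer in FHT-1015 at all 8 loci. SOX10, a neural crest factor that maintains the melanocyte lineage, had 113 peaks over the loci in DMSO and 45 in FHT-1015, a ratio of 0.398. They covered 59448 bases in DMSO and 16180 bases in FHT-1015, and the length was shorter at all 8 loci (97.7% of all genes). The whole SOX10 list had a ratio of 0.322, and 91.6% of all genes with a SOX10 peak had fewer in FHT-1015, so the count at the AP-1 loci was near the background. Of the 7 loci with at least 5 DMSO peaks, 7 had a number lower by 1.5-fold or more, which held for 87.1% of all such genes, and 7 had a covered length lower by as much, against 96.5%.

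SMARCA4 covered more bases in FHT-1015 at 7 of the 8 loci, all but FOS. The SMARCA4 peaks covered 54308 bases in DMSO and 75281 bases in FHT-1015, a ratio of 1.39, while the whole list had a ratio of 1.00. Covered length was longer for 67.5% of all genes with a SMARCA4 peak. It was at least 1.5-fold longer at 3 of 8 loci, JUN, FOSL1 and FOSB, against 17.4% of genes with 5 or more DMSO peaks, and at least 1.5-fold shorter at 0 of 8, against 7.24%. Their number was 104 in DMSO and 117 in FHT-1015, higher at 5 loci (40.8% of all genes) and lower at 3 (45.9%). By 1.5-fold, the number was higher at JUN alone (8.48% of genes) and lower at FOS and FOSL2 (21.4%). The direction of the summed number turned when only peaks nearest to the AP-1 gene were kept, with a ratio of 0.885, and in the broad lists, with 0.981. The longer covered length did not turn under any alternative tried, but its ratio was 1.13 over peaks nearest to the AP-1 gene. The median ratio of genes with 5 or more DMSO peaks, counting every peak of the window, was also 1.13.

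H3K27ac differed less in covered length than in number. The loci had 84 H3K27ac peaks in DMSO and 73 in FHT-1015, which covered 87163 and 86178 bases, longer at 4 loci (27.4% of all genes) and shorter at 4 (72.6%). Peaks were fewer at 5 loci, equal at 3 and more numerous at none, against 68.7% of all genes with fewer and 13.5% with more. By 1.5-fold, only ATF3 of 6 testable loci had a lower number (50% of genes) and none a shorter covered length (28.4%). The median H3K27ac peak was 540 bases in DMSO and 720 bases in FHT-1015. Median summit fragments were 33.5 and 54 at the loci, and 22 and 25 in the whole lists of 68093 and 48103 peaks. Each locus's strongest DMSO peak and its counterpart were ranked within their own lists. The ranks were 3436 and 1801 at FOS, 2535 and 917 at FOSB, 1954 and 1157 at FOSL1, and 7204 and 3050 at FOSL2. They were 3995 and 4138 at JUNB, 12068 and 9332 at JUN, 1116 and 50 at JUND, and 10798 and 7325 at ATF3.

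MITF and TFAP2A had near equal numbers in both conditions when weak peaks were counted too. MITF, the basic helix-loop-helix regulator of pigment cells, had 71 peaks in DMSO and 66 in FHT-1015, covering 30883 and 25141 bases. Those of −log10 p 10 or more numbered 28 and 19, a ratio of 0.679 against 0.409 in the whole list. MITF covered length was shorter at 6 of 8 loci, against 60.7% of all genes, and JUN and JUND were lower by 1.5-fold among 7 testable loci, against 35.4%. By number, JUN alone was lower by 1.5-fold, against 30.2%. TFAP2A, an AP-2 factor of neural crest and skin, had 160 peaks in DMSO and 157 in FHT-1015, covering 88504 and 92490 bases. Its peaks of −log10 p 10 or more numbered 94 and 76, a ratio of 0.809 against 0.600 in the whole list. ATF3 alone of 8 loci was lower by 1.5-fold, both in TFAP2A number (22.9% of genes) and in covered length (19.6%). With 10 kb or 100 kb either side of the gene, the TFAP2A number ratio was 1.07 or 1.03 instead of 0.981, so its direction differed between window sizes. Its covered length had a ratio of 1.05 over the loci, but of 0.828 over peaks nearest to the AP-1 gene and 0.959 over peaks whose −log10 p was 10 or more.

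**Figure D2:**
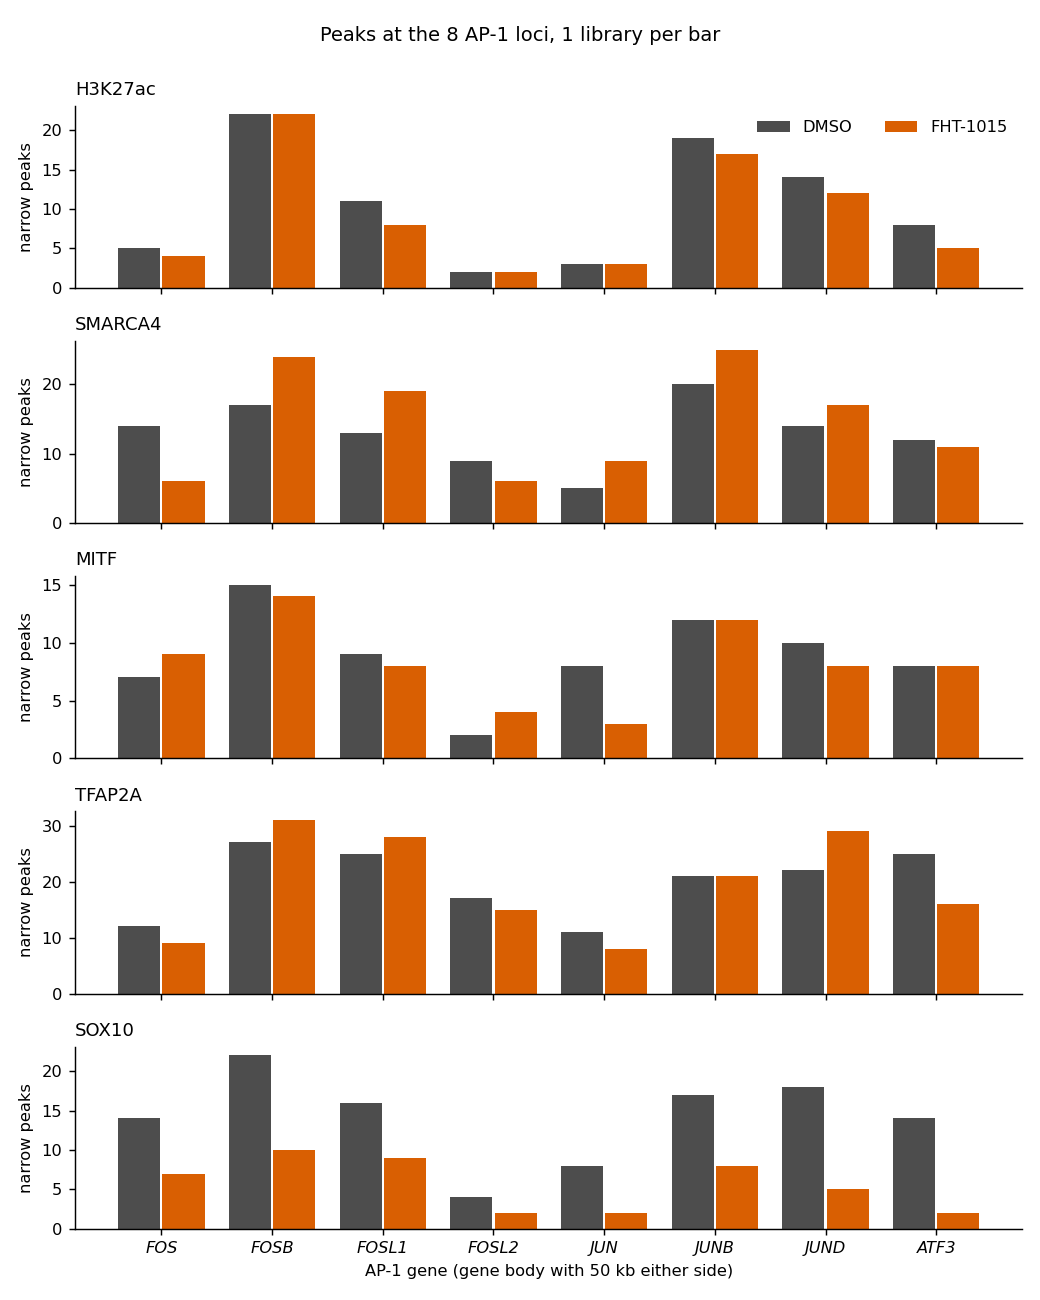
Number of narrow peaks at each of the 8 AP-1 loci in DMSO (grey) and FHT-1015 (orange), 1 panel for each antibody and 1 library for each bar, with axes from 0. SOX10 bars are lower in FHT-1015 at all 8 loci, while SMARCA4 bars are higher at 5 and lower at 3.

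**Figure D3:**
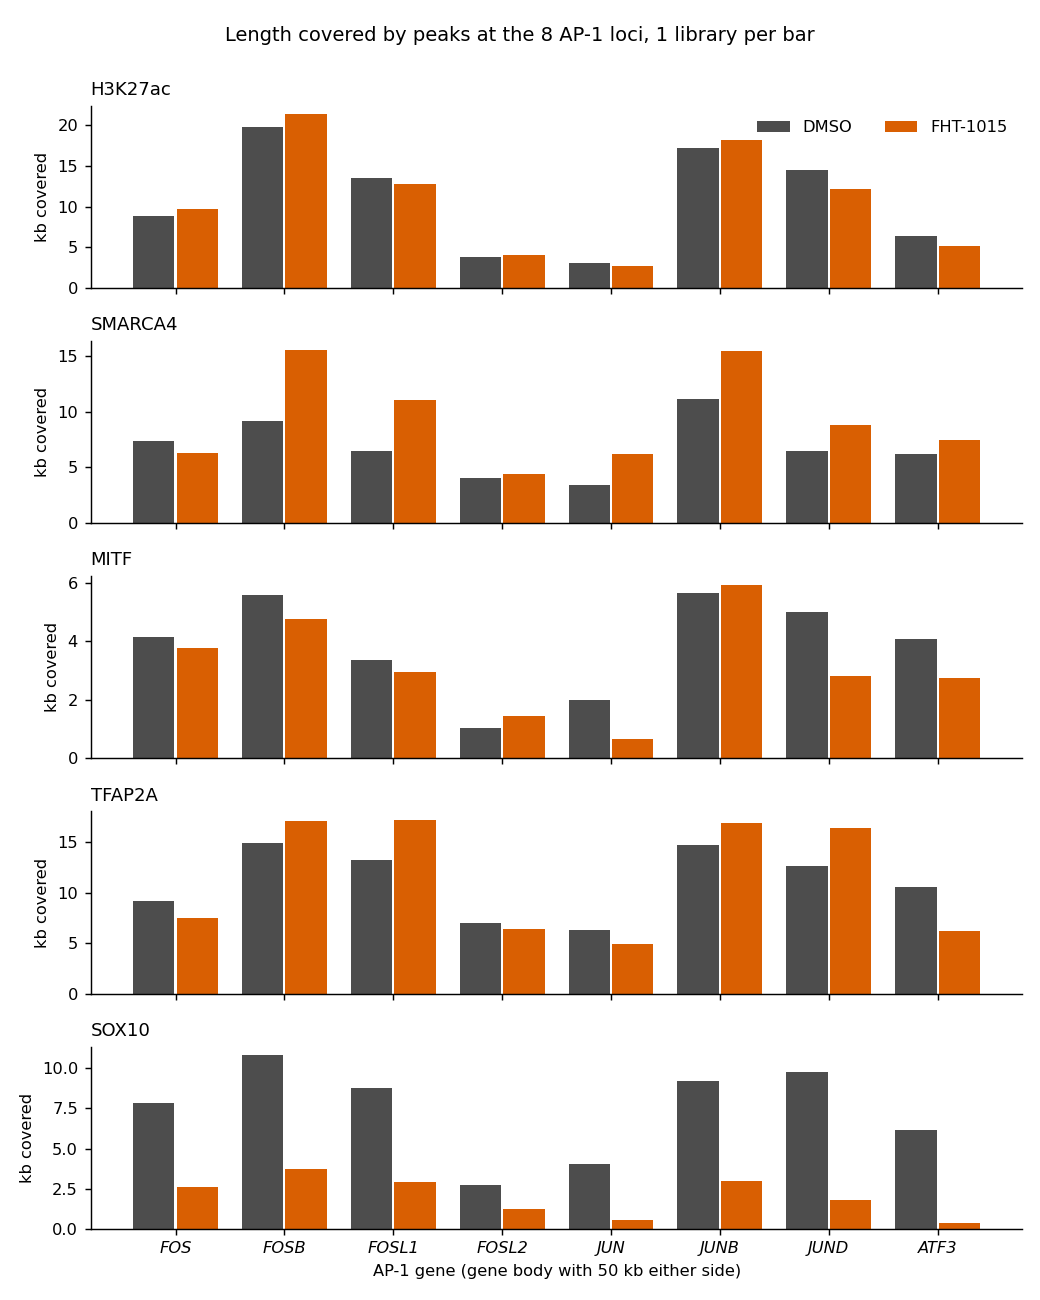
Kilobases of each window covered by narrow peaks, drawn as in the plot of peak numbers. SMARCA4 covers more in FHT-1015 at every locus but FOS, and H3K27ac is longer at 4 loci and shorter at 4.

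FOS encodes the founding partner of JUN in AP-1 and is the classic immediate early gene. Its window (gene body chr14:75278828-75282230, plus strand) held no other gene and had 3 clusters of peaks, about the start, upstream and downstream. H3K27ac peaks numbered 5 in DMSO and 4 in FHT-1015 and covered 8871 and 9754 bases. Each of the 3 clusters kept its H3K27ac: the downstream peak at chr14:75293474-75296653 had 145 summit fragments in DMSO and 220 in FHT-1015. FOS was also the locus with the lowest SMARCA4 number ratio, at 14 DMSO peaks and 6 FHT-1015 peaks. Of the 14 DMSO peaks 8 were retained, meaning that they shared at least 1 base with an FHT-1015 peak, and the covered length was 7383 bases in DMSO and 6254 in FHT-1015. The 3 DMSO SMARCA4 peaks between 75276256 and 75278382 overlapped 1 FHT-1015 peak at chr14:75276573-75278314, with 38 summit fragments against 26 in the strongest of the 3.

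The upstream FOS cluster differed by antibody. At chr14:75258690-75259394, with its summit 19725 bases from the gene, TFAP2A had 182 summit fragments in DMSO and 199 in FHT-1015. MITF had 144 fragments at that site in DMSO and 125 in FHT-1015, its strongest peak of the locus. SOX10 had 52 fragments there in DMSO and 37 in FHT-1015. Both SMARCA4 peaks of this cluster in DMSO, with 25 and 14 summit fragments, had no counterpart in the FHT-1015 list. The peak with 25 was near the bottom of its list, with a fold enrichment of 1.63 and rank 100946 of 101987. The peak with 14 had a fold enrichment of 3.70 and rank 41526. The strongest SOX10 peak of the locus lay over the start, at chr14:75278039-75279793, with 66 fragments in DMSO and 51 in FHT-1015. Its fold enrichments, each within its own list, were 8.29 and 3.31. Across the whole FOS window SOX10 had 14 peaks in DMSO and 7 in FHT-1015, MITF 7 and 9, and TFAP2A 12 and 9.

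FOSB encodes a FOS family protein that is likewise induced by stimulation. Its window (gene body chr19:45467996-45475179, plus strand) held 22 H3K27ac peaks in each condition, 20 of them retained. SMARCA4 peaks numbered 17 in DMSO and 24 in FHT-1015 and covered 9147 and 15570 bases, with 12 peaks found in FHT-1015 only. The strongest FHT-1015 SMARCA4 peak was at chr19:45495291-45496949, inside the neighbour RTN2, with 92 summit fragments. It overlapped a DMSO peak with 23 fragments. At that site a SOX10 peak with 18 fragments was found in DMSO only, and TFAP2A had 15 and 19 fragments in DMSO and FHT-1015. The strongest DMSO SMARCA4 peak, at chr19:45492222-45493139 and also inside RTN2, had 38 fragments and its counterpart 40. The strongest TFAP2A peak of the 8 loci in DMSO lay nearby in RTN2, at chr19:45492497-45493506, with rank 528 of 142667 in its list, and its FHT-1015 counterpart had 101 summit fragments.

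Next to the FOSB gene, H3K27ac was stronger in FHT-1015 and SOX10 weaker. The H3K27ac peak just inside the gene at chr19:45468193-45469318 had 83 summit fragments in DMSO and its counterpart had 156 in FHT-1015. The peak downstream at chr19:45478599-45479415 had 138 and 187. The strongest H3K27ac peak of the window in DMSO lay further off, inside ERCC1 at chr19:45423043-45425813, with 195 fragments and a longer FHT-1015 peak over it. Over it also lay the strongest SOX10 peak, at chr19:45423532-45424611, with 76 fragments in DMSO and 37 in FHT-1015. MITF was strongest upstream of the gene at chr19:45455767-45456319, with 68 and 19. The SOX10 peak over the downstream site, with 57 summit fragments, was among the 3 strongest lost at all the loci. Over the window SOX10 had 22 peaks in DMSO and 10 in FHT-1015, while TFAP2A had 27 and 31 and MITF 15 and 14.

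FOSL1 encodes FRA1, a FOS relative without a strong activation domain that is often high in invasive tumours. Its window (gene body chr11:65892049-65900545) was the most crowded, with 10 other genes. SMARCA4 had 13 peaks in DMSO and 19 in FHT-1015, covering 6435 and 11061 bases, and 12 of the 13 DMSO peaks were retained. The strongest SMARCA4 peak found only in FHT-1015 at any of the 8 loci lay here, at chr11:65873007-65873964, nearest to EFEMP2, with 83 summit fragments. H3K27ac, MITF and TFAP2A peaks lay over it in both conditions, and a SOX10 peak with 32 fragments lay there in DMSO only. The strongest DMSO peaks of 3 antibodies lay together near MUS81: H3K27ac at chr11:65855867-65862085 with 182 fragments, SMARCA4 at chr11:65860127-65861283 with 39 against 46 in FHT-1015, and SOX10 at chr11:65856892-65858439 with 81 against 40. A SMARCA4 peak at chr11:65890705-65892232 reached the lower end of FOSL1, with its summit inside the neighbour CCDC85B and 28 fragments against 45 in FHT-1015. The strongest TFAP2A peak, at chr11:65887936-65888846 inside FIBP, had 167 fragments in DMSO and 204 in FHT-1015. TFAP2A had the highest retained share of the window, with 24 of 25 DMSO peaks retained, whereas 6 of 16 SOX10 peaks were. The strongest MITF peak, at chr11:65911546-65911991 with 60 fragments, was absent from the FHT-1015 list.

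FOSL2 encodes FRA2, the longer-lived relative of FRA1. The gene (chr2:28392858-28417317, plus strand) stood alone in its window, and its peaks gathered at the start. H3K27ac had 2 peaks in each condition, and the DMSO pair at 28389817-28390413 and 28390505-28393722 overlapped 1 FHT-1015 peak at chr2:28389881-28393732. The summit fragments of the larger were 88 in DMSO and 179 in FHT-1015. SMARCA4 had 9 peaks in DMSO and 6 in FHT-1015, yet covered 4088 and 4442 bases, and its peak over the start had 31 and 50 fragments. MITF over the start, where the CACATG match lies, had 58 fragments in DMSO and 47 in FHT-1015. SOX10 over the start had 54 and 37, and SOX10 peaks in the window numbered 4 and 2. TFAP2A had 9 of 17 DMSO peaks retained and 6 of 15 FHT-1015 peaks absent from DMSO. Its strongest peak, at chr2:28452418-28452906, lay 35288 bases from the gene with 51 fragments in DMSO and 68 in FHT-1015.

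JUN encodes the main partner of FOS and can bind its own promoter as AP-1. The gene (chr1:58780791-58784047, minus strand) had the highest SMARCA4 number and length ratios of the 8 loci, 5 peaks in DMSO and 9 in FHT-1015, covering 3432 and 6191 bases. Over the gene, a DMSO peak with 28 summit fragments at chr1:58782039-58783683 was longer in FHT-1015, at chr1:58781754-58784020, with 36. A further difference lay upstream, at chr1:58816050-58817323, where a SMARCA4 peak with 50 fragments was found in FHT-1015 only. Its summit was 32416 bases from the gene, and H3K27ac and TFAP2A peaks lay over it in both conditions. H3K27ac there had 17 summit fragments in DMSO and 23 in FHT-1015, TFAP2A 38 and 24, and SOX10 20 in DMSO with no peak in FHT-1015.

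MITF and SOX10 had few peaks left at JUN. MITF had 8 peaks in DMSO and 3 in FHT-1015, covering 1995 and 670 bases, with 5 to 24 summit fragments in the 2 lists. The strongest in DMSO, with 15 fragments, was lost. SOX10 had 8 and 2 peaks, and the strongest, at the start, had 38 fragments in DMSO and 23 in FHT-1015. H3K27ac had 3 peaks in each condition, all retained, with 70 fragments just upstream of the gene in DMSO and 101 in FHT-1015. TFAP2A had 11 and 8 peaks, and the strongest, inside the gene at chr1:58781650-58782059, had 58 and 37 fragments.

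JUNB encodes a JUN protein that can restrain JUN and is itself quickly induced. Its window (gene body chr19:12791486-12793315, plus strand) was the 1 locus where all DMSO SMARCA4 peaks, 20 of 20, were retained, and FHT-1015 had 25 peaks over 15488 bases against 11161 bases in DMSO. The peak at chr19:12801020-12802941 downstream of the gene had 65 summit fragments in FHT-1015, over a DMSO peak with 29. The strongest DMSO SMARCA4 peak of the locus, at chr19:12832334-12832866 inside RTBDN, went the other way, with 41 fragments in DMSO and 28 in FHT-1015. H3K27ac over the gene ran from 12791459 to 12795145 in DMSO with 171 fragments, and from 12790797 to 12795143 in FHT-1015 with 209. The DMSO peak had rank 3995 of 68093 in its list, and the FHT-1015 peak rank 4138 of 48103. MITF and TFAP2A persisted at the gene: the TFAP2A peak at chr19:12791138-12794268 had 80 fragments in DMSO and 140 in FHT-1015. SOX10 had 17 peaks in the window in DMSO and 8 in FHT-1015, and at the gene its strongest peak had 67 fragments in DMSO against 45 in FHT-1015. The strongest peaks of the 3 factors lay away from JUNB. MITF had 88 and 56 fragments inside HOOK2 at chr19:12782644-12783310. TFAP2A had 133 and 159 inside RTBDN at chr19:12833873-12835125, and SOX10 had 44 and 22 at chr19:12835999-12836726.

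JUND encodes the JUN family member that is present in most cells without induction. Its gene (chr19:18279694-18281622, minus strand) carried the strongest H3K27ac peak of all the loci in FHT-1015, at chr19:18281688-18283246, with a fold enrichment of 52.0 and rank 50 of 48103 in its list. The strongest DMSO peak of the locus, at chr19:18282003-18283905, had rank 1116 of 68093 in its own list and ended short of the start. The FHT-1015 peak reached further towards the gene and included the TGACGTCA match at 18281815-18281822. H3K27ac had 14 peaks in DMSO and 12 in FHT-1015, of which 9 of the 14 were retained.

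The factors at JUND differed in direction. SMARCA4 numbered 14 and 17. Its strongest DMSO peak, at chr19:18292425-18292835, had 30 fragments against 43 in FHT-1015. The fold enrichments, each within its own list, were 5.15 and 4.22. The 10 found in FHT-1015 only had 7 to 22 summit fragments, below the 43 of the strongest peak of the locus in that list. SOX10 had 18 and 5 peaks, and the DMSO peak over the start, with 51 fragments, overlapped a shorter FHT-1015 peak with 18 that did not reach the start. TFAP2A numbered 22 and 29, but its strongest peak, at chr19:18291301-18294083, had 227 fragments in DMSO and 152 in FHT-1015. MITF had 10 and 8 peaks, over 5004 and 2804 bases, and the strongest in DMSO, at chr19:18293303-18294178, had 30 fragments against 22.

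ATF3 encodes a stress-induced factor that pairs with JUN proteins and mostly represses. It has 2 starts among the promoter entries used, and no peak of any of the 10 lists covered either. Starts missing from those entries were not assessed. The gene body (chr1:212565407-212620777, plus strand) held a cluster of peaks within it. There H3K27ac at chr1:212608701-212609891 had 83 summit fragments in DMSO and 134 in FHT-1015, SMARCA4 had 36 and 39, and TFAP2A had 105 and 97. SOX10 had 62 in DMSO, and a pair of short FHT-1015 peaks with 26 and 20 fragments remained. The MITF peak there, with 34 fragments, was lost.

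Another ATF3 site, upstream of the gene, had weaker peaks in FHT-1015 for most antibodies. MITF at chr1:212545749-212546546 had 170 summit fragments in DMSO, its strongest peak at any of the 8 loci, and 42 in FHT-1015. H3K27ac there had 78 and 30 fragments. TFAP2A, with 32, and SOX10, with 35, had no peak there in FHT-1015, while SMARCA4 had 29 and 26. ATF3 was the locus with the fewest retained SOX10 peaks, 1 of 14, and SOX10 covered 6185 bases in DMSO but 392 in FHT-1015. It also had the lowest retained share of TFAP2A peaks, 12 of 25. The strongest of the 13 lost TFAP2A peaks, at chr1:212667431-212668094 with 45 fragments, was nearest to BATF3.

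Retained shares were read with their 95% Wilson intervals, which cover counting error over peaks only. Of 84 H3K27ac peaks, 72 were retained, 85.7% (76.7 to 91.6), against 59.3% in the whole list. SMARCA4 had 79 of 104 retained, 76% (66.9 to 83.2), against 52.0%, and TFAP2A 123 of 160, 76.9% (69.8 to 82.7), against 54.9%. MITF had 44 of 71 retained, 62.0% (50.3 to 72.4), against 36.2%. SOX10 had 34 of 113, 30.1% (22.4 to 39.1), against 18.3%. Shares at the loci were above the whole-list share for all 5 antibodies. The median over loci with at least 5 DMSO peaks lay closer to the median of all such genes: 84.7% against 64.7% for H3K27ac, 69.0% against 60% for SMARCA4, 80.1% against 66.7% for TFAP2A, 66.7% against 44.4% for MITF and 31.8% against 21.4% for SOX10. Strength moved with this: retained H3K27ac peaks had a median −log10 p of 19.7 and lost ones of 4.16, and retained SOX10 peaks of 17.6 and lost ones of 6.81. Its part in the shares was not tested.

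**Figure D4:**
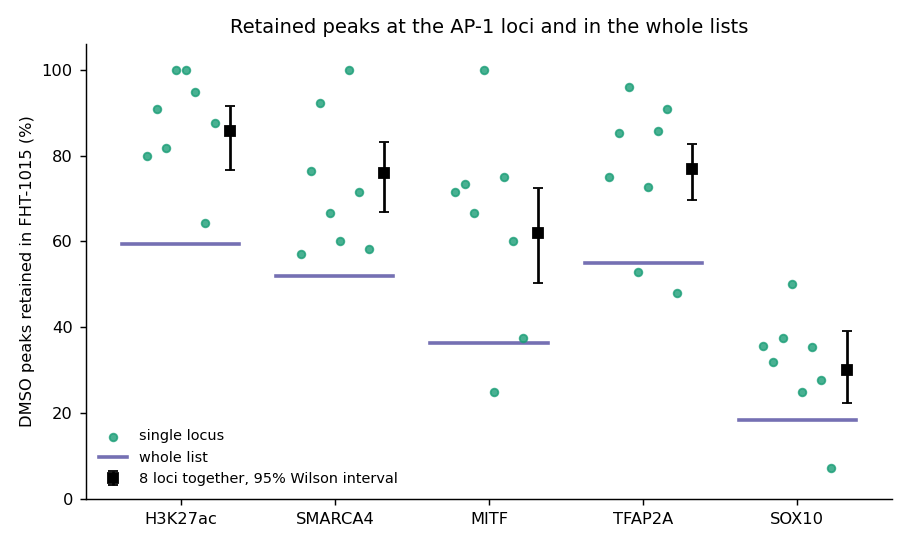
Percent of DMSO peaks that shared at least 1 base with an FHT-1015 peak, for each AP-1 locus (green points, in the order FOS, FOSB, FOSL1, FOSL2, JUN, JUNB, JUND, ATF3), for the 8 loci together (black square with its 95% Wilson interval) and for the whole list (purple line). The black squares lie above the purple line for all 5 antibodies, from 30.1% for SOX10 to 85.7% for H3K27ac.

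Peaks found only in FHT-1015 were most frequent for SMARCA4, 49 of 117 or 41.9% (33.3 to 50.9), close to the 45.4% of the whole list. They numbered 9 of 73 for H3K27ac (12.3%, list 19.8%), 23 of 66 for MITF (34.8%, list 64.8%), 39 of 157 for TFAP2A (24.8%, list 34.4%) and 6 of 45 for SOX10 (13.3%, list 38.5%). Of the 49 SMARCA4 peaks, 21 lay over a TFAP2A peak of the same condition, 42.9% (30.0 to 56.7) against 19% of such peaks in the whole list. Over H3K27ac lay 16, 32.7% (21.2 to 46.6) against 22% in the list, and over SOX10 lay 2. The whole list is not limited to gene windows, and peak density was not matched in any of the overlaps between antibodies.

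Most lost SOX10 peaks lay over a TFAP2A peak in DMSO, and fewer over MITF. Of 79, 57 lay over a TFAP2A peak, 72.2% (61.4 to 80.8) against 57.0% of lost peaks in the list. Over H3K27ac lay 40 (50.6%, list 42.7%), over SMARCA4 38 (48.1%, list 50.7%) and over MITF 28 (35.4%, list 40.5%). Of the 34 retained, 31 lay over TFAP2A (91.2%, list 80.6%) and 28 over H3K27ac (82.4%, list 80.2%). Close to the genes, with summits within 5 kb of the gene body, 13 of 33 SOX10 peaks were retained, 39.4% (24.7 to 56.3), and 21 of 80 further out, 26.3% (17.9 to 36.8). Over the windows of all protein-coding genes the 2 shares were 23.3% and 24%. For SMARCA4 the same split gave 33 of 36 near, 91.7% (78.2 to 97.1), and 46 of 68 further out, 67.6% (55.8 to 77.6), against 59.6% and 58.7%. The shares over all genes counted a peak once for each window it fell in, and gene length was not matched.

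The strongest lost and FHT-1015-only peaks differed in strength by antibody. For H3K27ac the 3 strongest of each kind were weak: 19 and 15 fragments at JUND and 17 at ATF3 among the lost, and 23 and 17 at JUNB and 21 at FOSB among those in FHT-1015 only. SMARCA4 lost peaks of 20 fragments at FOS and 16 at both JUND and ATF3, while its FHT-1015-only peaks reached 83 at FOSL1, 50 at JUN and 15 at JUND. The order was the other way round for MITF, which lost 60 at FOSL1, 39 at JUNB and 34 at ATF3 and had 28 at FOSL1, 14 at FOSB and 12 at FOS in FHT-1015 only. TFAP2A lost 45 and 40 at ATF3 and 25 at FOS, and had 24 at ATF3 and 18 at both JUND and FOSL2. SOX10 lost 65 at JUND and 57 and 49 at FOSB, and had 17 and 10 at FOSB and 8 at FOSL1. Strength was ranked by −log10 p.

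At the gene starts, taken as 250 bases before to 50 after, H3K27ac peaks covered 6 of the 8 genes in DMSO and 7 in FHT-1015, against 56.6% and 58.1% of 15843 genes with an entry. FOSL1 was assessed within 150 bases of either end of its gene body, which gave it an extra chance. Its H3K27ac peak lay at the lower end only, with its summit inside the neighbour CCDC85B in both conditions. Without FOSL1, 5 and 6 genes remained. JUND was the gene added, and ATF3 was scored at its listed starts only. SMARCA4 covered 3 starts, FOSL1, FOSL2 and JUNB, in DMSO and JUN as well in FHT-1015, against 37.5% and 49.2%. MITF covered 5 and 6 starts (36.9% and 35.5%), JUN being added, and TFAP2A covered the same 7 in both (62.2% in each). SOX10 covered 7 in DMSO (60.0%) and 4 in FHT-1015 (33.3%), with FOSB, FOSL1 and JUND lost. That is 3 of 7, against 45.1% of all starts with a SOX10 peak in DMSO. Among peaks of −log10 p 10 or more, MITF covered 2 starts in DMSO (20.4% of genes) and 3 in FHT-1015 (19.2%), and SOX10 7 (43.4%) and 2 (7.41%). FOSL2 and JUNB had a peak at the start in all 10 lists, as did 12.6% of genes with an entry.

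With a wider window no antibody covered more starts in FHT-1015 than in DMSO. Within 1 kb of the start, H3K27ac covered 7 genes in either condition (against 60.7% of all genes in DMSO and 60.6% in FHT-1015), and in the same order SMARCA4 covered 8 and 8 (60.1% and 65.6%), MITF 6 and 6 (47.5% and 45.1%) and TFAP2A 7 and 7 (69.7% and 69.8%). SOX10 covered 7 and 6 there (65.5% and 42.2%).

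**Figure D5:**
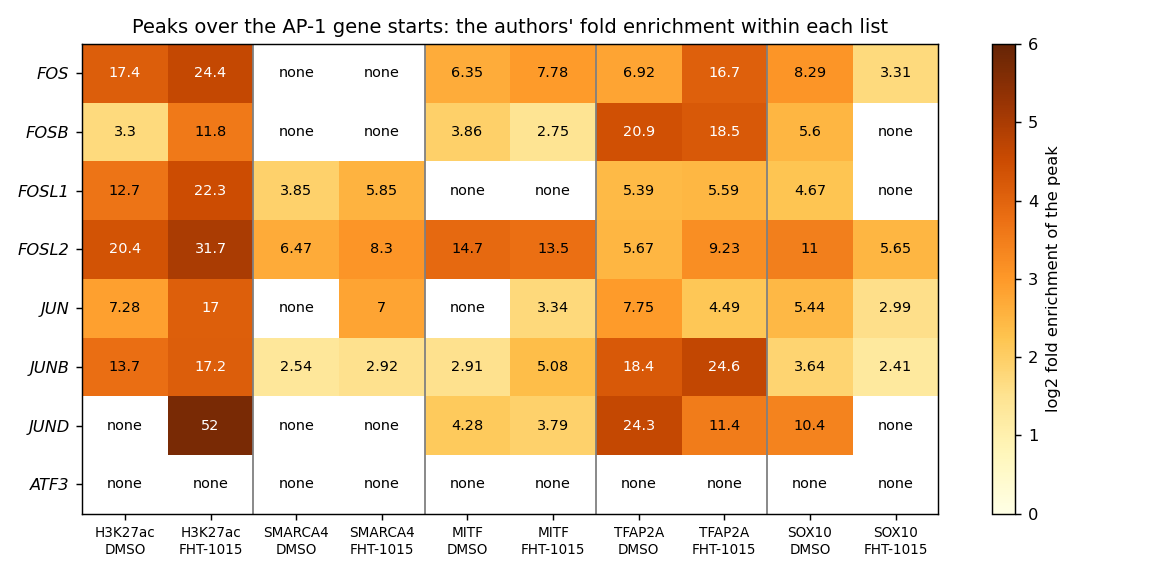
The authors' fold enrichment of the strongest peak over each AP-1 gene start in each of the 10 narrow lists, with "none" where no peak covered it and colour on a log2 scale. For FOSL1, which had no promoter entry, the higher value of its gene ends is shown. Its H3K27ac and SMARCA4 values come from the lower end, and the upper end had no H3K27ac peak in either condition. Values are to be compared within a list, and the ATF3 row, which covers its listed starts only, is empty in all 10 lists.

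The other genes of the network, 48 in all, were bZIP partners such as MAF, BACH and CREB proteins, other immediate early genes and the MAP kinases and their phosphatases upstream. Their SOX10 number was lower by 1.5-fold in 36 of 43 testable genes and higher in none (background 87.1% and 0.252%). The extremes were JDP2, a repressor of AP-1, with a ratio of 0, and KLF6 with 1.07. SMARCA4 number was lower in 8 of 42 (background 21.4%) and higher in 3, EGR1, MAPK8 and MAP2K7 (8.48%), with EGR1, an immediate early zinc finger factor, at a ratio of 2. CREB1 was lowest at 0.313.

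H3K27ac number was lower in 17 of 36 network genes (background 50%) and higher in none, from 0.167 at BACH1, a repressor of antioxidant genes, to 1.29 at CREM. MITF number was lower in 15 of 40 and higher in 2, MAP2K1 and BACH1, against backgrounds of 30.2% and 8.34%. TFAP2A number was lower in 11 of 48 and higher in 2 (background 22.9% and 8.30%), from 0.233 at MAF to 1.77 at MAP2K7. The median SMARCA4 length ratio of the network genes was 1.11, beside 1.38 for the 8 AP-1 loci and 1.13 for all genes. For H3K27ac number the 3 medians were 0.711, 0.829 and 0.676.

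By Euclidean distance over log2(peaks + 1) in the 10 lists, the genes outside the windows nearest to the mean of the members were MICOS10-NBL1 (0.400), NBL1 (0.480) and RGP1 (0.530). MICOS10-NBL1 and NBL1 overlap each other. Among the members ATF3 was nearest to their own mean (1.14) and FOSL2 farthest (3.47). The 3 genes were picked from all genes for their likeness, so these distances are descriptions.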

How the data were processed

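ChIP-seq was done in 92-1 cells with 5 antibodies in 2 conditions, 1 library each, and with a DMSO input whose reads were not used here. Sample titles gave the groups, and the target written AP-2 there is called TFAP2A after its antibody label. BWA, SAMtools, Picard, MACS2 and hg38 are named, without role or version, per the submitters' processing notes. The deposited data were 10 narrow and 4 broad peak lists, 1 per library, not pooled. Each peak's fold enrichment (a ratio to the local background) and its −log10 p and −log10 q were deposited by the authors, and fold enrichment is compared only within a list. The whole-number score deposited by the authors, 10 times −log10 p (narrow) or −log10 q (broad), was not used.

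Repeated entries with identical coordinates counted as 1 peak, and a peak belonged to a locus when at least 1 base fell in its window. A DMSO peak was retained when it had at least 1 base in common with a peak of that antibody in FHT-1015, and lost otherwise. Covered length counted the window's bases under a peak. The same measures were made for all 20037 protein-coding genes, and ratios were read at genes with at least 5 DMSO peaks, as lower or higher by at least 1.5-fold. Summit fragments were solved from fold enrichment and −log10 p as MACS2 defines them, for peaks with a −log10 p up to 250. They are set side by side between lists without correction for depth or local background, so fragments and fold enrichment can move differently. Whether a difference in fragments exceeded that of equally strong peaks elsewhere was not tested. PCR reads without molecular identifiers are not independent molecules. Wilson intervals (95%) cover counting error over peaks, which are not replicates. All 8 members were named, with the strongest DMSO peak of each locus and antibody and the 3 strongest lost and FHT-1015-only peaks of each antibody. Further peaks beside them, and the added motifs, were chosen after their values were seen. Members, network genes and lists were chosen with earlier results of these data known. Window size, overlap, peak strength, nearest gene, broad lists and start width were varied. The interval code was checked on simulated windows. Python 3.11.15, numpy 2.4.6, pandas 2.3.3, scipy 1.17.1 and matplotlib 3.10.9 were used.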

Additional observations from a re-analysis of the deposited data

How the results depend on the processing

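Of 108 alternative values, 74 kept their direction and stayed within 1.5-fold (ratios, starts) or inside the 95% Wilson interval (shares), 27 moved further and 7 turned direction, and the cause was not tested. Among the 74, the SOX10 FHT-1015-only share (13.3%) was 23.7% with 100 kb either side, the SMARCA4 length ratio (1.39) was 2.02 with peaks of −log10 p of at least 10, and SOX10 covered 6 starts in place of 4 within 1 kb. With only peaks of −log10 p of at least 10, the covered length ratio (FHT-1015 over DMSO) was 1.03 for H3K27ac and 0.959 for TFAP2A. The retained shares were then 91.8% for H3K27ac, 91.3% for SMARCA4, 69.1% for TFAP2A and 12.5% for SOX10. FHT-1015-only peaks made up 15.8% (MITF), 14.5% (TFAP2A) and 0% (SOX10) of the FHT-1015 peaks at the loci, and the SOX10 ratios were 0.125 for number and 0.0855 for length. With 10 kb either side, the TFAP2A number ratio was 1.07, the retained shares were 90.9% for SMARCA4 and 83.3% for TFAP2A, and FHT-1015-only peaks made up 3.57% (H3K27ac), 30.8% (SMARCA4), 24% (MITF) and 4.76% (SOX10). With 100 kb, the TFAP2A number ratio was 1.03 and the SMARCA4 retained share 65.5%. With peaks nearest to the AP-1 gene, the SMARCA4 number ratio was 0.885 and the SMARCA4 length ratio 1.13. The TFAP2A length ratio was then 0.828, the TFAP2A retained share 66.2% and the SOX10 FHT-1015-only share 5.56%. In the broad lists the SMARCA4 number ratio was 0.981, and the FHT-1015-only shares were 5.36% for H3K27ac and 30.7% for SMARCA4. When 50% of a peak had to be covered, retained shares were 65.4% (SMARCA4), 49.3% (MITF) and 18.6% (SOX10), and the SMARCA4 FHT-1015-only share was 59.0%. At the starts, SMARCA4 covered 8 genes in DMSO and 8 in FHT-1015 within 1 kb, and with −log10 p of at least 10 MITF covered 2 and 3 and SOX10 7 and 2. SOX10 number and length were lower in FHT-1015, and SMARCA4 length longer, under each of these alternatives that gave a value. No paired analysis was possible because each antibody had 1 library in each condition. Depth limits the weak peaks: a summit of 8 to 15 fragments can be listed in one library and missed in the other.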
